A study of Mus musculus with 12 samples.

Results

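Heart, vessel and circulation gene sets were taken from Gene Ontology (GO) tables of genes whose promoters gained or lost H3K4me3 in the hippocampus of 2 mouse models of Koolen-de Vries syndrome. A GO term is a named group of genes that share a biological process. A row was a member when its term name held heart, cardi, blood, vascul, vessel, circulat, angiogen or muscle, in upper or lower case. The search found 52 of the 1076 listed rows, which named 32 distinct terms. They stood in 4 of the 8 gene lists. The list of genes up-regulated in Kansl1+/- had 18 such rows of 302 (5.96%), the list up-regulated in Del/+ had 8 of 250 (3.20%), cluster 1 had 12 of 190 (6.32%) and cluster 2 had 14 of 104 (13.5%). The search found 0 of 14 rows for genes down-regulated in Kansl1+/-, 0 of 2 for genes down-regulated in Del/+, 0 of 125 for cluster 3 and 0 of 89 for cluster 4. Without the search word muscle, cluster 2 had 5 such rows and cluster 1 had 11, so the order of these clusters depends on it.

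The lists came from chromatin immunoprecipitation of H3K4me3, a histone mark of active promoters, in whole hippocampus of 12 C57BL/6N mice at postnatal day 30. There were 3 Del/+ mice, heterozygous for a deletion of the Arf2-Kansl1 interval, with 3 wt controls, and 3 Kansl1+/- mice with 3 wt controls. Kansl1+/- mice carry 1 copy of a Kansl1 allele (tm1b) made by Cre recombination in mice from a single embryonic stem cell clone. In Del/+, 1 copy of every gene of the interval is missing from all cells, Kansl1 included, so both models have a single working copy of Kansl1. The study set each mutant group against all 6 wt libraries, so the Kansl1+/- and Del/+ lists share their controls and are only given side by side here. Per the study's account, the up-regulated genes were divided into 4 clusters: cluster 1 was up-regulated in Kansl1+/- and not in Del/+, cluster 2 in both, cluster 3 more strongly in Del/+ and cluster 4 in Del/+ alone. The tables hold numbers of genes and nothing per mouse, so sequencing depth per library is unknown. Neither a spread between mice nor a p-value is given for any value.

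Vessels form when endothelial cells sprout from an existing vessel under vascular endothelial growth factor, a step that Notch signalling restrains, and matrix proteins such as thrombospondin hold sprouting back. Circulation is regulated in formed vessels, where noradrenaline, serotonin, peptides and other ligands act on receptors of smooth muscle and set the vessel's width, while pacemaker channels set the heart rate. In brain tissue many of the same receptors also sit on neurons and glia, and Notch, bone morphogenetic protein (BMP) and Sox proteins also act in neural stem cells. A whole-hippocampus sample holds endothelial and mural cells of its vessels beside neurons and glia, and a larger share of such cells and more H3K4me3 per cell cannot be told apart in these lists.

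The tables count genes without naming them, so it is not known which genes were counted under a term. Gene names published with the lists were therefore searched for a textbook list of 142 genes in 5 roles, put together after these names had been read in part. No count below rests on it. Among genes of sprouting and vessel growth, cluster 1 named Kdr, the main receptor of vascular endothelial growth factor on endothelium, and Notch1. Among the inhibitors of angiogenesis it named Thbs1 (thrombospondin), Timp3 (an inhibitor of matrix metalloproteinases that also blocks Kdr), Col4a3 and Col18a1 (collagen chains whose cleaved ends, tumstatin and endostatin, inhibit endothelial growth) and Dcn (decorin). Of heart formation genes it named Msx1, Msx2, Sox4 and Sox9, and of genes of vessel tone Ednrb, a receptor of endothelin. All these genes were also named in the list up-regulated in Kansl1+/-.

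Of the textbook list, 49 genes are of vessel tone and circulation, 33 of sprouting and vessel growth, 27 of heart formation and 18 inhibitors of angiogenesis, so the numbers of names per role are not compared. In cluster 2, Adra1a (an adrenergic receptor that constricts vessels), Htr1b and Htr2a (serotonin receptors) and Chrm3 (a muscarinic receptor of smooth muscle) were named in the up-regulated lists of both mutants. Tacr3 (the neurokinin B receptor) and Hcn4 (the pacemaker channel of the heart) were named for Kansl1+/-. Adm (adrenomedullin, a peptide that widens vessels), Ptgs2 (cyclooxygenase of prostaglandin synthesis) and Kcnma1 (the large-conductance potassium channel that relaxes smooth muscle) were named for Del/+. Cluster 2 also named Efnb2, an ephrin of arterial endothelium, and Tbx1, which is needed for the outflow tract of the heart. Elsewhere, Nrp1 and Sparc were named in cluster 3, S1pr1 and Adcyap1 in cluster 4 and Bdkrb2 in both down-regulated lists. None of the 15 genes of the smooth muscle role was found. The lists hold 160 to 512 genes against a background of 23468, so nothing is read from this. The published names of cluster 4, Kansl1+/- down and Del/+ up were held only in part, so a gene that is not mentioned for these may still be in them.

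The calls behind the gene lists were made at promoters. As examples, promoter windows are given of the first inhibitors of angiogenesis in cluster 1 and the first genes of vessel tone in cluster 2. The genes were taken by alphabet among those with an entry, and the windows were not matched to the regions called by the authors. They are RefSeq windows on GRCm38.p6, from 250 bases before to 50 after a start, 5′ to 3′ on the gene's strand, and differ in build from the mm9 named in the submitters' processing notes. Capitals mark GC boxes, the letters GGGCGG or CCGCCC on the printed strand.
Col18a1 upstream window at chr10:77166481-77166780, minus strand: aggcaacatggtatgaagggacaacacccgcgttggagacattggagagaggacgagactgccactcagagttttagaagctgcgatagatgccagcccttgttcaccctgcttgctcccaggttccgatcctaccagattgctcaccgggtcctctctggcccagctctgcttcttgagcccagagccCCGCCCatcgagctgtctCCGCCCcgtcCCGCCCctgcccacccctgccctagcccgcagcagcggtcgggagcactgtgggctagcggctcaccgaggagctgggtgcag
Col18a1 downstream window at chr10:77113656-77113955, minus strand: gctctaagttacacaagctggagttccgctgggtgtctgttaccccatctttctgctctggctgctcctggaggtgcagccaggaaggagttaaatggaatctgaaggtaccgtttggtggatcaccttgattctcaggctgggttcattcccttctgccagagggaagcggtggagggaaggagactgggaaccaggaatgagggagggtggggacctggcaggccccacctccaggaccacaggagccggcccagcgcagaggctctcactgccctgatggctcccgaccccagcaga
Timp3 at chr10:86300162-86300461, plus strand: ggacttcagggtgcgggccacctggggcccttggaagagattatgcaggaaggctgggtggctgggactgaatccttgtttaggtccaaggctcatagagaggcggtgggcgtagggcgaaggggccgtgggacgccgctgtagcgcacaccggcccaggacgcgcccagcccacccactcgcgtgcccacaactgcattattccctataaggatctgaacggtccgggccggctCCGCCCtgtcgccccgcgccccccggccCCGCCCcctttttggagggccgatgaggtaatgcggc
Adm at chr7:110627407-110627706, plus strand: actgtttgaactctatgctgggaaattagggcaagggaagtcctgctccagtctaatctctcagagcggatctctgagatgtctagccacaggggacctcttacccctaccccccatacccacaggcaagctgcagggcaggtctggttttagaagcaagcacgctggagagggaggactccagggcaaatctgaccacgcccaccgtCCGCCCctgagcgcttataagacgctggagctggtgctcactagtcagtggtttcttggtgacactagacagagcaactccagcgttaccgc
Chrm3 at chr13:10360754-10361053, minus strand: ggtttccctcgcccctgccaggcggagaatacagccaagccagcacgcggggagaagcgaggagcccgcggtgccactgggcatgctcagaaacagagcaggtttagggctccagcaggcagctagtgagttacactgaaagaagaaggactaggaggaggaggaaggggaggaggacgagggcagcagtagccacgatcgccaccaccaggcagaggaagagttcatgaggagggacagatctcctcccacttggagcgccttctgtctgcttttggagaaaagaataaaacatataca

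Timp3 had 2 GC boxes and 24 CpG dinucleotides, and the upstream window of Col18a1 had 3 boxes and 16 CpGs. The downstream Col18a1 window, of a second start, had 0 boxes and 6 CpGs. Of the tone genes, Adm had 1 box and 9 CpGs, and Chrm3 had 0 boxes and 11 CpGs. Of 32851 RefSeq windows of 300 bases, 35.7% held the motif and the median held 7 CpGs. The 5 windows therefore lie on both sides of the median in CpG content, and no difference between the roles is drawn from so few. Thbs1, Col4a3, Dcn and Adra1a had no entry.

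Each term is given as the number of its genes in a list and in the background, its expected number and the fold, the first over the third. The background was 23468 genes and the list sizes were 343 (Kansl1+/- up), 483 (Kansl1+/- down), 512 (Del/+ up), 343 (Del/+ down), 160, 214, 212 and 162 (clusters 1 to 4). The study's number of promoters up-regulated in Del/+ is below 512. Its total for each mutant is also below the recovered up and down sizes together, and the reason is not known. Shares and limits for the lists of both mutants, and for the genes of Kansl1+/- up outside cluster 1, rest on the recovered sizes. For shares of a list, exact 95% intervals (Clopper-Pearson) are given. They cover counting error alone. The tables do not state when a term was listed. No listed term had a p of 1e-05 or more when recomputed from its counts, and every count given below for an unlisted term assumes that all terms under 1e-05 were listed.

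Vessel formation, meaning angiogenesis and the development of blood vessels and vasculature with their regulation, took 16 rows. They stood in cluster 1 (7 terms, median fold 7.30), Kansl1+/- up (5 terms, 4.15) and Del/+ up (4 terms, 3.02). These medians follow the sizes of the terms listed: with terms of at most 300 background genes they were 14.0 in cluster 1 and 8.25 in Kansl1+/- up, and Del/+ up had no such term. Blood vessel morphogenesis and vasculature development were listed for all 3, and regulation of angiogenesis for cluster 1 and Kansl1+/- up. Negative regulation was listed for cluster 1, sprouting for Kansl1+/- up and angiogenesis for Del/+ up. Cluster 1 lies inside Kansl1+/- up, so its genes of negative regulation are in that list too, below the count at which the term would be listed there.

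In cluster 1, negative regulation of angiogenesis held 8 of its 77 background genes against 0.525 expected, a fold of 15.2. These were 5.0% of the cluster (2.18 to 9.61%), against 0.328% of the background. The broader terms negative regulation of blood vessel morphogenesis (80 genes) and negative regulation of vasculature development (84 genes) also held 8 each, at 14.7-fold and 14.0-fold. GO places the first term inside these, so the same 8 genes were counted under all 3. Regulation of angiogenesis in either direction held 11 of 221 genes, 7.30-fold and 6.88% of the cluster (3.48 to 12.0%), and regulation of vasculature development held 11 of 240, 6.72-fold. Thus 8 of the 11 regulators of angiogenesis in cluster 1 carried the negative annotation, against 77 of 221 in the background. The negative term stood 1 gene above the smallest count that would have been listed, and the difference was not tested. Blood vessel morphogenesis held 13 of 396 genes, 4.82-fold, and vasculature development held 14 of 500, 4.11-fold. Blood vessel development lies between the latter terms in GO and was not listed. Its 467 genes must include the 13 of blood vessel morphogenesis, and a count of more than 13 would have been listed under that assumption, which leaves 13 and a fold of 4.08.

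In Kansl1+/- up, sprouting angiogenesis, the outgrowth of new vessels from old ones, held 8 of 45 genes against 0.658 expected, 12.2-fold and 2.33% of the list. Regulation of angiogenesis held 14 of 221 genes, 4.33-fold. The general terms held more genes at lower folds: blood vessel morphogenesis 24 of 396 (4.15-fold), blood vessel development 25 of 467 (3.66-fold) and vasculature development 26 of 500 (3.56-fold). Almost all genes of vasculature development in this list were thus counted under blood vessel morphogenesis as well. Angiogenesis itself, with 301 background genes, was not listed for Kansl1+/- up. It must hold the 8 sprouting genes and could hold at most 16 without being listed.

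In Del/+ up, angiogenesis held 21 of 301 genes, 3.20-fold. Blood vessel morphogenesis held 28 of 396 (3.24-fold), blood vessel development 29 of 467 (2.85-fold) and vasculature development 29 of 500 (2.66-fold). Blood vessel morphogenesis was 5.47% of this list (3.66 to 7.81%), 6.997% of Kansl1+/- up (4.53 to 10.2%) and 8.13% of cluster 1 (4.40 to 13.5%), and these intervals overlapped. Regulation of angiogenesis was not listed for Del/+ up, where up to 16 genes (3.13%) would have stayed unlisted, against 14 genes (4.08%) in Kansl1+/- up. The limit for negative regulation of angiogenesis in Del/+ up was 9 genes.

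Regulation of circulation and the processes it acts on took 11 rows, in cluster 2 (5 terms, median fold 6.77), Del/+ up (3 terms, 4.60) and Kansl1+/- up (3 terms, 3.54). Regulation of blood circulation was the term listed for all 3. In cluster 2 it held 16 of 259 genes against 2.36 expected, 6.77-fold and 7.48% of the cluster (4.33 to 11.9%). In Kansl1+/- up it held 17 genes, 4.49-fold and 4.96% of the list (2.91 to 7.82%). In Del/+ up it held 26 genes, 4.60-fold and 5.08% (3.34 to 7.35%). The intervals of the 3 lists overlapped.

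The lists differed in the terms around it. Cluster 2 also listed blood circulation (16 of 329, 5.33-fold), circulatory system process (16 of 332, 5.28-fold), positive regulation of blood circulation and vascular process in circulatory system (each 8 of 107, 8.20-fold). Kansl1+/- up listed blood circulation (17 of 329, 3.54-fold) and circulatory system process (17 of 332, 3.50-fold). Del/+ up listed neither of these broad terms. It listed regulation of heart contraction (15 of 172 genes, 2.93% of the list) just under a fold of 4, and vascular process in circulatory system, which covers vessel width and permeability (12 of 107, 5.14-fold). Blood circulation could hold at most 21 genes in Del/+ up without being listed, against 26 under its regulation, so, if the assumption holds, at least 5 of the regulating genes were not counted under blood circulation.

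**Figure D1:**
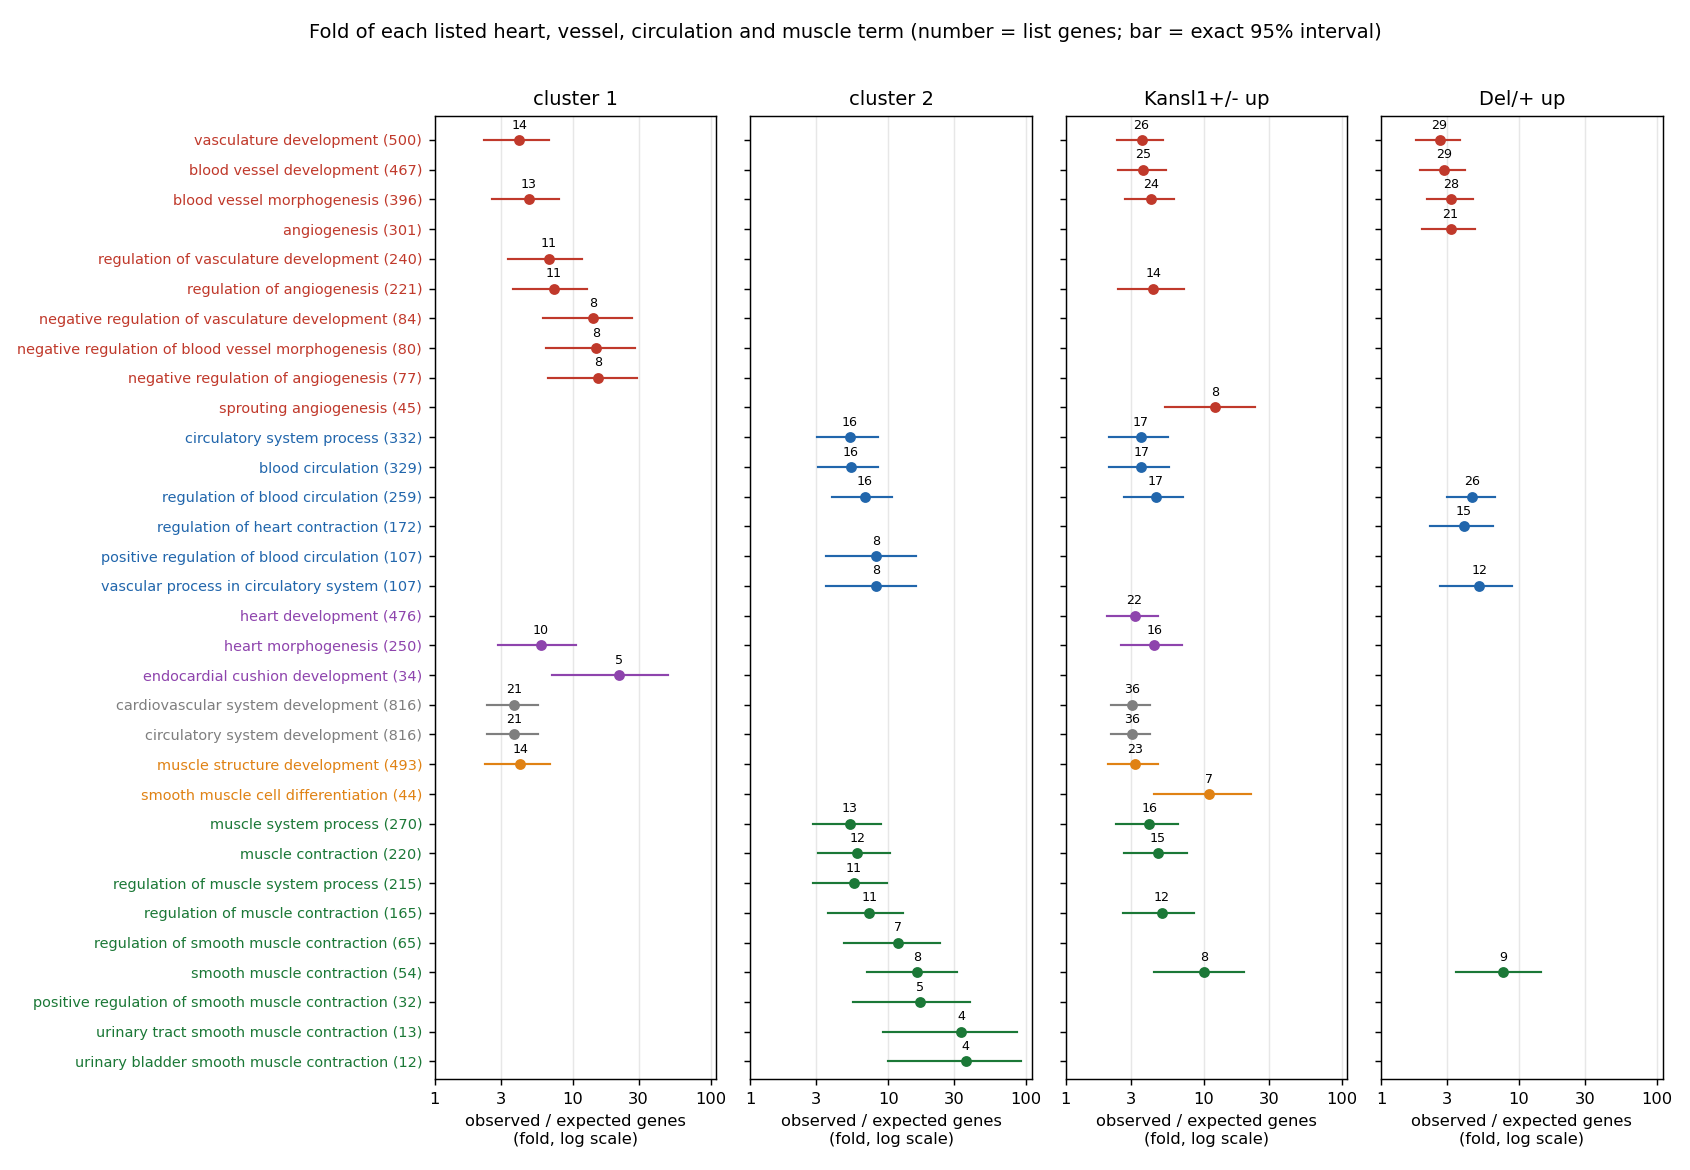
Fold of each listed term (log scale) in cluster 1, cluster 2, Kansl1+/- up and Del/+ up, with background genes in brackets after the term name. The number over a point is its count of list genes, the bar is the exact 95% interval, and colours mark vessel formation (red), circulation (blue), heart formation (purple), whole system (grey), muscle formation (orange) and muscle contraction (green). Vessel formation terms stand in cluster 1 and not in cluster 2, circulation terms in cluster 2 and not in cluster 1, and both in the lists of the mutants.

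Set against each other, cluster 1 listed 7 terms of vessel formation and 0 of circulation, and cluster 2 listed 0 of vessel formation and 5 of circulation. Clusters 3 and 4 listed 0 of each. An unlisted term is not an absent one. From the threshold of 1e-05, regulation of blood circulation could hold up to 10 genes of cluster 1 (6.25%) and stay unlisted, against 16 (7.48%) in cluster 2. Blood vessel morphogenesis could hold up to 14 genes of cluster 2 (6.54%), against 13 (8.13%) in cluster 1. Regulation of angiogenesis could hold up to 10 genes of cluster 2 (4.67%) and its negative regulation up to 6 (2.80%). Each of these limits lies inside the interval of the cluster that listed the term. The same held for all 78 pairs of a term and a cluster without it, and in 11 of them the limit reached the listed share itself. The split of vessel formation and circulation between clusters 1 and 2 was seen in which terms were listed. The limits are not observed counts, so they cannot show whether the shares differed. A difference in shares between the clusters was not shown by these counts.

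**Figure D2:**
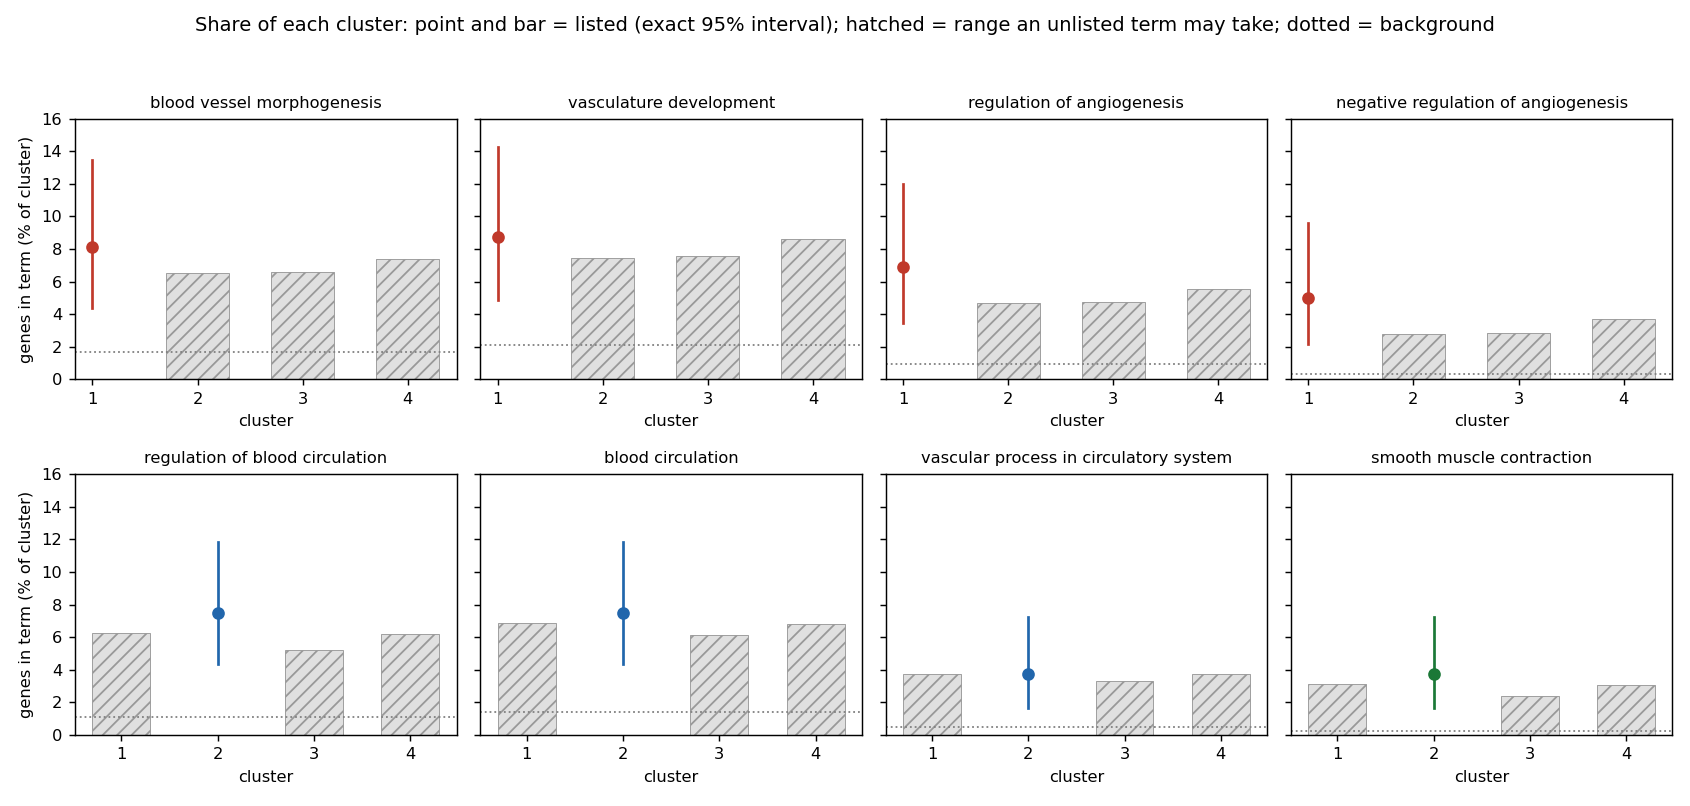
Share of each cluster's genes in 4 vessel formation terms (upper row), 3 circulation terms and smooth muscle contraction (lower row), in percent of the cluster. Points with bars are listed values with exact 95% intervals, hatched columns reach up to the largest share an unlisted term could have, and dotted lines are the share of the background. Hatched columns reach into the interval of the listed cluster in all panels.

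Cluster 1 could be set against the rest of the Kansl1+/- list, because all its published gene names are also in Kansl1+/- up. The remaining 183 genes were obtained by subtraction. For all 163 terms listed in both tables, 0 had more genes in cluster 1. Of the 24 genes of blood vessel morphogenesis in Kansl1+/- up, 13 were in cluster 1 and 11 were outside it (6.01% of the 183 genes, 3.56-fold). Of the 26 genes of vasculature development, 14 were inside and 12 outside (6.56%, 3.08-fold). Vessel formation genes thus stood in both parts of the list. Cluster 2 is not the same as these 183 genes: it has 214, so at least 31 genes of cluster 2 are not in Kansl1+/- up. The study describes this cluster as up-regulated in both mutants, and its clustering took in every gene called up in either mutant.

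Of the 14 genes of regulation of angiogenesis, 11 were in cluster 1 (6.88%, 3.48 to 12.0%) and 3 outside (1.64%, 0.339 to 4.72%, 1.74-fold), and the intervals overlapped. Negative regulation of angiogenesis was not listed for Kansl1+/- up, where a count over 8 would have been, and cluster 1 already held 8. If all terms under 1e-05 were listed, this leaves 0 genes among the 183, which allows a share of up to 1.996% (the exact upper bound), with 0.6004 expected. A term listed for cluster 1 and not for Kansl1+/- up can have few genes outside the cluster, so the 0 follows from how the term was chosen and no difference is read from it. Terms listed for both were likewise chosen by their listing for cluster 1, so a higher share there follows in part from the choice. The difference between cluster 1 and the rest was not tested.

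**Figure D3:**
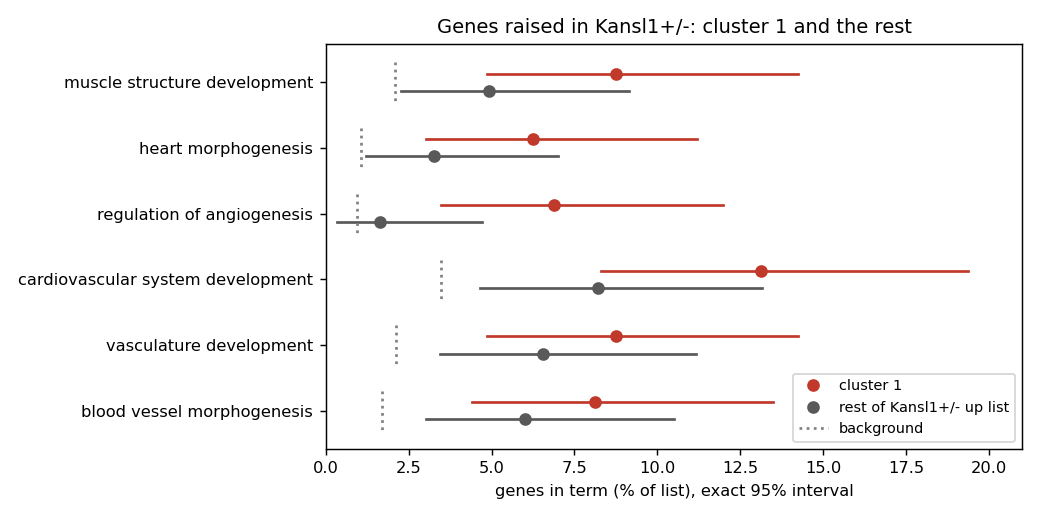
Share of genes in a term, in percent, for cluster 1 (red, 160 genes) and the rest of Kansl1+/- up (dark grey, 183 genes), with exact 95% intervals; dotted ticks are the share of the background. Intervals overlap for all 6 terms drawn, which were listed for both (circulatory system development, equal in counts to cardiovascular system development, is left out). These terms were chosen by their listing for cluster 1, so a higher share there follows in part from the choice. Negative regulation of angiogenesis, listed for cluster 1 alone, is not drawn.

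Heart formation took 4 rows, all in Kansl1+/- up or cluster 1. Heart morphogenesis held 16 of 250 genes in Kansl1+/- up (4.38-fold) and 10 in cluster 1 (5.87-fold, 6.25%), which left 6 outside the cluster (3.28%, 3.08-fold). Heart development held 22 of 476 in Kansl1+/- up, 3.16-fold. Endocardial cushion development, the swelling of tissue that becomes valves and septa, held 5 of 34 genes in cluster 1, 21.6-fold and 3.13% of the cluster (1.02 to 7.14%). It was not listed for Kansl1+/- up, where up to 5 genes would have stayed unlisted, so under the same assumption 0 were left outside cluster 1, and no difference is read from this. Del/+ up listed no term of heart formation, with limits of 18 genes for heart morphogenesis and 26 for heart development.

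The terms of the whole system were of 816 genes each, cardiovascular system development and circulatory system development, with equal counts in each list. They held 36 genes in Kansl1+/- up (10.5%, 3.02-fold) and 21 in cluster 1 (13.1%, 3.77-fold). In Del/+ up they were not listed. There they must include the 29 genes of vasculature development and could hold up to 38, a fold of 1.63 to 2.13.

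Muscle terms were of 2 kinds, formation and contraction. Muscle structure development held 23 of 493 genes in Kansl1+/- up (3.19-fold) and 14 in cluster 1 (4.17-fold). Smooth muscle cell differentiation held 7 of 44 in Kansl1+/- up, 10.9-fold. Contraction was listed 9 times for cluster 2 and not for cluster 1. Muscle contraction could hold up to 5.625% of cluster 1 and stay unlisted, against 5.61% in cluster 2. For smooth muscle contraction this limit was 3.125%, below the 3.74% of cluster 2 but inside its interval. A difference in shares between the clusters was not shown. Of the muscle terms, smooth muscle contraction was the one shared by all lists with a circulation term. It held 8 of 54 genes in cluster 2 (16.2-fold, 3.74% of the cluster, 1.63 to 7.23%), 8 in Kansl1+/- up (10.1-fold) and 9 in Del/+ up (7.64-fold).

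In cluster 2, muscle contraction of all kinds held 12 of 220 genes (5.98-fold), muscle system process 13 of 270 (5.28-fold), regulation of muscle contraction 11 of 165 (7.31-fold) and regulation of muscle system process 11 of 215 (5.61-fold). Kansl1+/- up listed 3 of these, muscle contraction (15 genes, 4.66-fold), muscle system process (16, 4.05-fold) and regulation of muscle contraction (12, 4.98-fold). Regulation of smooth muscle contraction held 7 of 65 genes in cluster 2 (11.8-fold) and its positive regulation 5 of 32 (17.1-fold). The highest fold of any of the 104 terms of cluster 2 was that of urinary bladder smooth muscle contraction, with 4 of 12 genes and 36.6-fold, and the next was urinary tract smooth muscle contraction, with 4 of 13 and 33.7-fold. Each rests on 4 genes, and the share of the cluster, 1.87%, had an interval of 0.512 to 4.72%.

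The tables place terms in numbered groups, by a method not given in the sources used here, and these show which other terms stood beside the members. In cluster 1 the 5 terms on regulation and negative regulation of vessel growth made a group of their own. The heart terms of cluster 1 stood with BMP signalling, a pathway that induces endocardial cushions and also patterns neural tissue. Positive regulation of BMP signaling pathway held 6 of 36 genes there (24.4-fold). In cluster 2, smooth muscle contraction and vascular process stood with regulation of vasoconstriction (8 of 75 genes, 11.7-fold) and the phospholipase C-activating receptor pathway (8 of 89, 9.86-fold), through which adrenergic, serotonin and muscarinic receptors contract smooth muscle. The bladder terms stood with serotonin receptor activity. In Kansl1+/- up, blood circulation stood with regulation of behavior (19 of 237, 5.49-fold) and regulation of synaptic transmission (17 of 297, 3.92-fold). In Del/+ up, circulation terms stood with regulation of vasoconstriction (10 of 75, 6.11-fold), and vessel terms with cell migration (43 of 787, 2.50-fold). Whether the same genes gave the circulation and the neuronal terms was not tested, since the tables name no genes.

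The members' median fold was above that of all listed terms in each of these lists. It was close to or below that of terms in the members' range of sizes. The median fold of members against all terms was 4.10 against 3.05 in Kansl1+/- up, 3.62 against 3.16 in Del/+ up, 6.29 against 3.99 in cluster 1 and 7.76 against 3.53 in cluster 2. A fold of at least 4 was reached by 10 of 18 members in Kansl1+/- up (32.5% of all its terms), 3 of 8 in Del/+ up (31.2% of all), 10 of 12 in cluster 1 (50.0% of all) and 14 of 14 in cluster 2 (48.1% of all). Small terms need a high fold to be listed, however, and the members are of small to middle size. Among all terms in the members' range of sizes, the median fold was 4.31 in Kansl1+/- up against 4.10 for the members, and 4.51 against 3.62 in Del/+ up. It was 6.18 against 6.29 in cluster 1 and 9.86 against 7.76 in cluster 2. The members' median was thus close to or below that of all terms in this range, which were not matched in size within it.

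**Figure D4:**
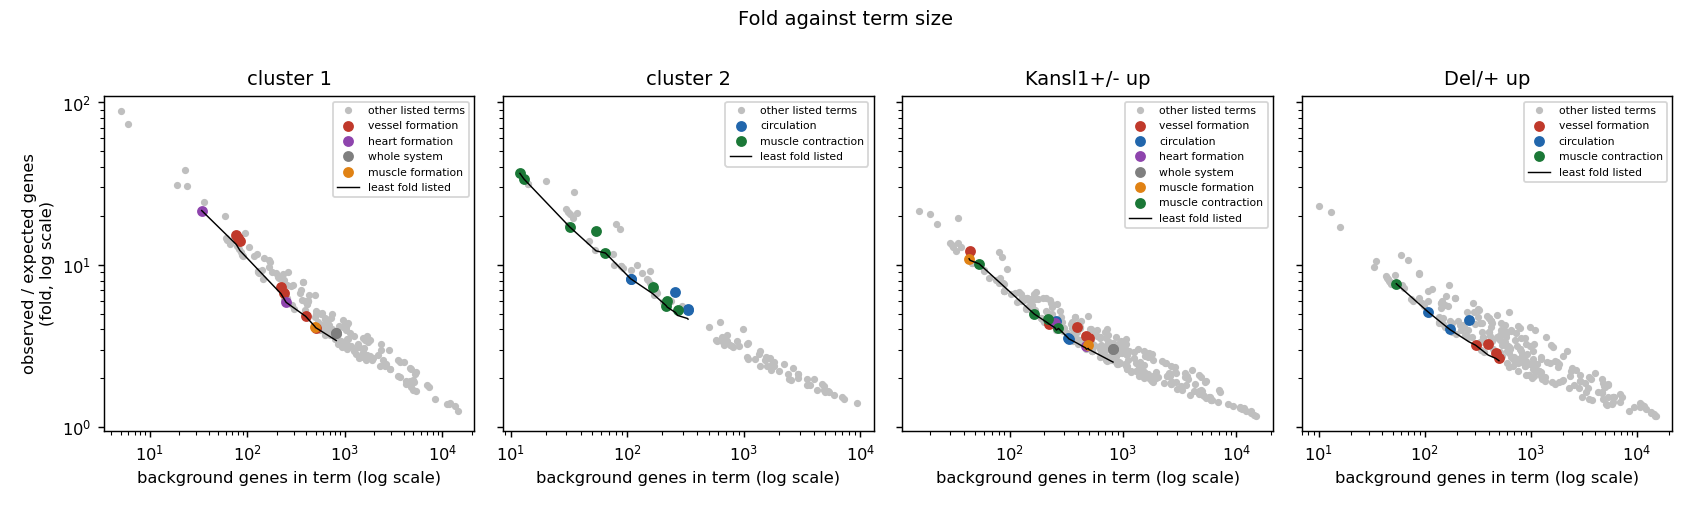
Fold against the number of background genes of each term (both axes logarithmic) in the 4 lists with members. Grey dots are other listed terms, coloured dots are members, and the black line joins the least fold at which members of that size are listed. Members lie on or near the line, within a band that falls with term size.

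Many members were listed by a narrow margin. In 23 of 52 (44.2%) the count was the smallest that would have been listed, against 209 of all 1076 terms (19.4%), not matched in size. The 23 included 7 of 18 in Kansl1+/- up (20.2% of all its terms) and 4 of 8 in Del/+ up (12.4% of all). They also included 5 of 12 in cluster 1 (20% of all) and 7 of 14 in cluster 2 (28.8% of all). Blood vessel morphogenesis and heart morphogenesis in cluster 1, regulation of heart contraction and smooth muscle contraction in Del/+ up and both bladder and urinary tract terms in cluster 2 were among them. The widest margin was 7 genes, for regulation of blood circulation in Del/+ up. The same term had a margin of 4 genes in cluster 2 and 2 in Kansl1+/- up, and negative regulation of angiogenesis in cluster 1 had a margin of 1. Of vessel formation, the widest was 5 genes, for blood vessel morphogenesis in Kansl1+/- up.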

How the data were processed

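H3K4me3 ChIP-seq libraries of 12 mouse hippocampi were mapped by the authors with BWA 0.6.2 (mm9, per the submitters' processing notes), and the authors used DESeq2 to call changed promoters, at p below 0.01. The deposited tables give, for each of 8 gene lists, the number of list and background genes of a GO term and its expected number, a score that the authors rounded to 2 decimals. Which table holds which list was taken from the paper's table captions, since the labels do not say. The authors' p-value and fold columns were not used. The tables held 0 per-sample columns. The background was the only whole number up to 40000 that, with 1 size per list, returned all 1076 expected numbers. Folds and exact intervals were computed from the counts. Listing limits are the largest counts whose hypergeometric tail stays above 1e-05 (the largest tail of a listed term was 9.91e-06) and test no list. The recovery of sizes was tested on simulated data. All found terms are named at least once, and genes are named where a textbook list and the published lists share them (1 gene is not reported here). The terms and gene lists were chosen with earlier results of these data known. Cluster 1 and the rest were separated by subtraction. Computations ran in Python 3.11.15 with scipy 1.17.1, numpy 2.4.6 and, for plots, matplotlib 3.10.9.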

Additional observations from a re-analysis of the deposited data

How the results depend on the processing

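Of 47 values recomputed under the alternatives, 37 stayed within the limits set and 10 moved. With 1 gene fewer per term, 11 members would still be listed for Kansl1+/- up, 4 for Del/+ up, 7 for cluster 1 and 7 for cluster 2. Without the word muscle, cluster 2 keeps 5 members. With terms of at most 300 background genes, the median fold of vessel formation was 8.25 in Kansl1+/- up and 14.0 in cluster 1, and no such term was left in Del/+ up. At least 3-fold was reached by 18 members of Kansl1+/- up and 6 of Del/+ up, and at least 5-fold by 3 of Kansl1+/- up. The median fold of all terms was 3.05 in Kansl1+/- up and 3.16 in Del/+ up. The share of all terms past 3-fold or 5-fold was not computed, so nothing is read from these counts. The values that moved follow from how the alternatives were built. The tables hold no values per mouse, so leaving out a replicate was not run and depth cannot be weighed. No paired analysis was possible because the tables carry no replicate columns.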

Other observations

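Arteries were not caught by the search words and are given here as values. Artery morphogenesis held 8 of 60 genes in Kansl1+/- up (9.12-fold) and 6 in cluster 1 (14.7-fold, 3.75% of the cluster), and artery development held 8 of 66 (8.29-fold) and 6 (13.3-fold). In Kansl1+/- up these terms stood in one group with smooth muscle cell differentiation. Cell migration, which sprouting needs and which is not particular to vessels, held 35 of 787 genes in Kansl1+/- up (3.04-fold), 43 in Del/+ up (2.50-fold) and 20 in cluster 1 (3.73-fold).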
